A study of Mus musculus with 12 samples.

Results

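The mitochondrial ribosomal protein genes were taken as the rows of the count tables whose symbol is Mrpl or Mrps followed by a number and, in some, a letter from a to c. There were 77 such genes among 24062 listed, 48 with an Mrpl name and 29 with an Mrps name. By the place of the protein in the mammalian mitochondrial ribosome, 50 belong to the large subunit, 26 to the small subunit and 1, Mrps36, to neither, since its product is a component of the 2-oxoglutarate dehydrogenase complex. Mrps18a and Mrps30 carry small-subunit names, but their proteins sit in the large subunit. All 77 had counts in every library, between 162 in the lowest library of Mrps6 and a mean of 3808 for the most counted gene, and all 77 passed the filter on low counts in every comparison.

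Mitochondria translate the few proteins encoded in their own genome, which are core parts of the respiratory chain, on a ribosome whose RNA is mitochondrial and whose proteins are all encoded in the nucleus and imported. Many of these proteins descend from bacterial ribosomal proteins, while others were added in the mitochondrial lineage. Hepatocytes are rich in mitochondria, and MYC is known to raise the transcription of many nuclear genes for mitochondrial proteins.

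The libraries were made from polyadenylated RNA of 12 mice, 1 library per mouse and 3 mice per group. Of these, 6 were livers of LAP-tTA/TRE-MYC males on the FVB background, in which the liver-restricted LAP promoter drives tTA and thereby a human MYC transgene once doxycycline is withdrawn at birth (MYC-ON). The labels give an age of 45 days for MYC-overexpressing males. The other 6 were xenografts of HCC53N, a single mouse liver cancer line lacking p53 and expressing mutant NRAS, grown under the skin of NOD SCID females. The labels of the xenografts also carry the MYC ON genotype. Within each model 3 mice were fed a complete control diet (livers 101, 102 and 103, xenografts 40, 41 and 43) and 3 a diet without Trp (No-Trp, livers 105, 107 and 108, xenografts 35, 36 and 37) for 21 days. Tumor cells, site, host strain and sex all change with the model, so their parts in a difference between livers and xenografts cannot be told apart, and in bulk tissue fewer cells of a type cannot be told apart from less RNA per cell.

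Reads counted on genes ranged from 14660963 to 26085349 per library. Control liver 101 stood apart in Rn45s, a ribosomal RNA precursor, which held 12.1% of its gene counts against at most 2.22% in the other libraries, and 4 libraries (livers 101 and 108, control xenografts 41 and 43) were marked as resubmitted. Levels are given in CPM, read counts scaled to a library of fixed size. Summed over 8 hepatocyte genes such as Alb and Cps1, the level was 9028 to 38870 CPM in control livers. It was 51400 to 128100 CPM in No-Trp livers and 164 to 621 CPM in the xenografts. The markers of the labelled tissue of origin were thus far lower in the xenografts, where Alb still had means of 236 CPM (control) and 200 CPM (No-Trp). Proliferation genes summed to 1296 to 1453 CPM in control livers, 147 to 444 CPM in No-Trp livers and 642 to 965 CPM in xenografts. Fibroblast genes summed to 629 to 822 CPM in livers and 1091 to 5400 CPM in xenografts, and erythroid genes to 48.9 to 536 CPM in control livers and at most 19.7 CPM elsewhere. In the xenografts, adipocyte genes summed to 14.2 to 69.1 CPM on the control diet and 389 to 823 CPM without Trp. Muscle genes summed to 3.53 to 24.7 and 34.7 to 64.6 CPM, and endothelial genes to 48.8 to 121 and 132 to 211 CPM. Proliferation genes there ranged from 642 to 675 and from 728 to 965 CPM. The hepatocyte, erythroid, macrophage and fibroblast sums of the xenografts overlapped between the diets. The part of these shifts in the results below was not tested.

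The 77 genes lie on 17 chromosomes, with at most 10 on one (chromosome 11). RefSeq promoter windows on GRCm38.p6, running from 250 bases before to 50 after the start of the gene, were at hand for 68 of them. The genes without a window were Mrpl4, Mrpl13, Mrpl15, Mrpl19, Mrpl38, Mrpl54, Mrps28, Mrps34 and Mrps35. Of the 68, 7 (10.3%) held the letters CGCATGCG, the core recognised by NRF1, against 2.07% of all 27025 genes with a window. The ETS-type letters CCGGAAGT, bound by GABPA, occurred in 12 (17.6%, all genes 4.31%) and the YY1-type letters AAGATGGCG in 8 (11.8%, all genes 1.64%). The E-box CACGTG, to which MYC and MAX bind, occurred in 5 (7.35%, all genes 8.09%). Both strands were searched, and none of the matches in the upstream part overlapped another. The median window of these genes had 58.5% G and C and 21.5 CG steps, against 52.7% and 7.0 over all windows. A match of letters is a description and not a binding site.

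The last 120 bases before the RefSeq start are shown for 4 genes named in the comparisons below, each of which holds a match there (in capitals). Other genes central to those comparisons, such as Mrpl49, Mrpl50, Mrps25, Mrps30 and Mrps6, held none of these letters in their windows. Mrpl3 and Mrpl9 were lower in No-Trp livers, Mrps22 was among the genes furthest below the livers in control xenografts, and Mrpl43 was 1 of 2 genes above the livers there.
Mrpl3 (chr9:105053148-105053267, plus strand, ETS-type match): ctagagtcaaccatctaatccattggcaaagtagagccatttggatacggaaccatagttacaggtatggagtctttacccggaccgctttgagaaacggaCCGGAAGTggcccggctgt
Mrpl9 (chr3:94443216-94443335, plus strand, NRF1 core): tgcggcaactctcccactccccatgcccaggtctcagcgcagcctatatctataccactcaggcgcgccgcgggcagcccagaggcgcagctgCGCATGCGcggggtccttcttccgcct
Mrps22 (chr9:98601680-98601799, minus strand, ETS-type match): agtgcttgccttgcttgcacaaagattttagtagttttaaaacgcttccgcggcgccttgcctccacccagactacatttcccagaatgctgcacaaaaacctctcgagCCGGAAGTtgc
Mrpl43 (chr19:45006443-45006562, minus strand, ETS-type match): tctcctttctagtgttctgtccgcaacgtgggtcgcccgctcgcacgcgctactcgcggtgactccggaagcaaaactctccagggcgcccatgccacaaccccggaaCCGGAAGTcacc
The match ended 12, 20, 4 and 5 bases before the start in Mrpl3, Mrpl9, Mrps22 and Mrpl43, respectively.

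The summed level of the 77 genes was highest in livers on the control diet and lowest in xenografts without Trp. It was 6914, 5326 and 5408 CPM in control livers 101, 102 and 103, and 4533, 4190 and 5724 CPM in No-Trp livers 105, 107 and 108. Control xenografts 40, 41 and 43 held 3543, 2814 and 3178 CPM, and No-Trp xenografts 35, 36 and 37 held 2487, 2852 and 2766 CPM. Every xenograft lay below every liver, while the diets overlapped in both models, in the livers through mouse 108 and in the xenografts through mouse 41. Library 101, the one rich in Rn45s, had the highest sum of all. These CPM use effective library sizes from TMM, edgeR's correction for composition. Without that correction the 77 genes made up 0.508% to 0.623% of gene counts in control livers, 0.287% to 0.495% in No-Trp livers and 0.303% to 0.382% in xenografts, so on raw shares No-Trp livers and xenografts overlapped.

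**Figure D1:**
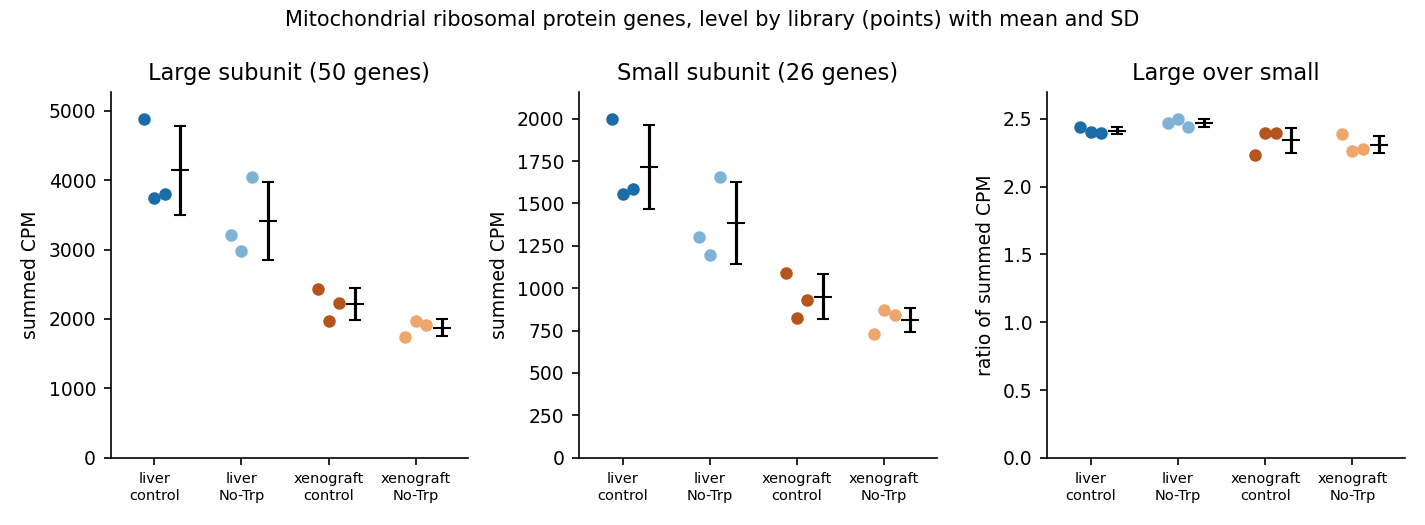
Summed CPM of the large-subunit genes (left) and small-subunit genes (middle) and their ratio (right) in each of 12 libraries, by model and diet. Points are libraries, and the bar beside them is the mean with the SD (n = 3). Both subunits step down together from livers to xenografts, and the ratio stays between 2.23 and 2.50.

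Large and small subunits kept nearly one proportion. The summed CPM of the large-subunit genes was 2.41 ± 0.03 times that of the small-subunit genes in control livers (mean ± SD, n = 3), 2.47 ± 0.03 times in No-Trp livers, 2.34 ± 0.09 times in control xenografts and 2.31 ± 0.07 times in No-Trp xenografts. The full range over the 12 libraries was 2.23 to 2.50, against a range of 2487 to 6914 CPM for the sum itself.

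The transcripts of the single proteins were far from equal, although the ribosome holds most of them in one copy. Per kilobase of exon, the level averaged over the 12 libraries was highest for Mrpl52 (147 CPM per kb), Mrpl12 (146) and Mrpl34 (116) and lowest for Mrps25 (6.80), Mrpl19 (7.80) and Mrpl48 (8.38). Mrpl12 encodes the stalk protein that recruits translation factors, Mrpl34 a conserved protein of the large subunit, and Mrpl52 a protein found only in mitochondrial ribosomes. In control livers Mrpl12 led with 235 ± 46.2 CPM per kb (mean ± SD, n = 3). Next came Mrpl42 (197 ± 42.8), Mrpl34 (191 ± 43.0) and Mrpl52 (176 ± 53.3), differences within the spread between mice. In control xenografts Mrpl52 led with 117 ± 9.63 CPM per kb. It was followed by Mrps21 (105.5 ± 24.85), Mrpl33 (102.8 ± 17.75), Mrpl34 (97.8 ± 18.9) and Mrpl12 (87.6 ± 13.9). The highest gene stood 24.1 times above the lowest in control livers, 42.5 times in No-Trp livers, 23.5 times in control xenografts and 24.0 times in No-Trp xenografts. Across the 77 genes the order of levels was much the same in control livers and control xenografts (Spearman's rho 0.79, Pearson's r 0.82 on log2 levels, a description over genes that share libraries and exon lengths). Long annotated exons enter these values, since Mrps25 and Mrpl19 have 6073 and 5000 bases of exon against 418 for Mrpl52.

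The mitoribosomal genes were lower in xenografts than in livers, and of the comparisons made this one took in most of them. On the control diet 59 of 77 were lower in xenografts at an adjusted p of at most 0.05 (edgeR's quasi-likelihood test, Benjamini-Hochberg over 15472 genes), and 2 were higher. Of all genes tested, 28.7% were lower and 30.8% higher. The median log2 fold change of the 77 was -0.93, that of all genes 0.015. For 57 of the 77 all 3 control xenografts lay below all 3 control livers, which held for 31.8% of all genes. Adding a log2 fold change of at least 1 kept 31 lower (all genes 20.2%) and 1 higher (all genes 23.3%).

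The same comparison in the other 6 mice, on the No-Trp diet, gave 60 lower and 2 higher, against 26.4% and 33.2% of all genes. The median was -0.90, with all genes at 0.15. All 3 xenografts lay below all 3 livers for 61 of 77 genes (all genes 29.5%), and 26 were also past a log2 fold change of 1 (all genes 19.1%). Of the genes lower on the control diet, 54 were lower on the No-Trp diet too, which is 91.5% of the first list and 90.0% of the second. In 67 genes the fold change was below 0 on both diets. The matching shares over all genes are not given here, so these overlaps show no trait particular to the 77 genes. The fold changes on the 2 diets had a Pearson's r of 0.77 across the 77 genes and 0.84 across all genes. Spearman's rho was 0.65 and 0.78, so the diets were no closer here than in genes in general. Mrpl1, Mrpl9, Mrpl22, Mrpl40 and Mrps36 were called lower on the control diet alone, and Mrpl14, Mrpl24, Mrpl53, Mrpl54, Mrpl55 and Mrps18c without Trp alone, and of these the interaction passed for Mrpl14. Among the 61 genes that share no exon sequence with another gene, 50 were lower on each diet. The No-Trp comparison depends on the scaling. With library totals in place of TMM, the median of all genes moved to 0.68, that of the 77 to -0.38, and 22 were lower and 6 higher. Mrpl28 and Mrps18c, both called lower, then stood at 0.01.

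**Figure D2:**
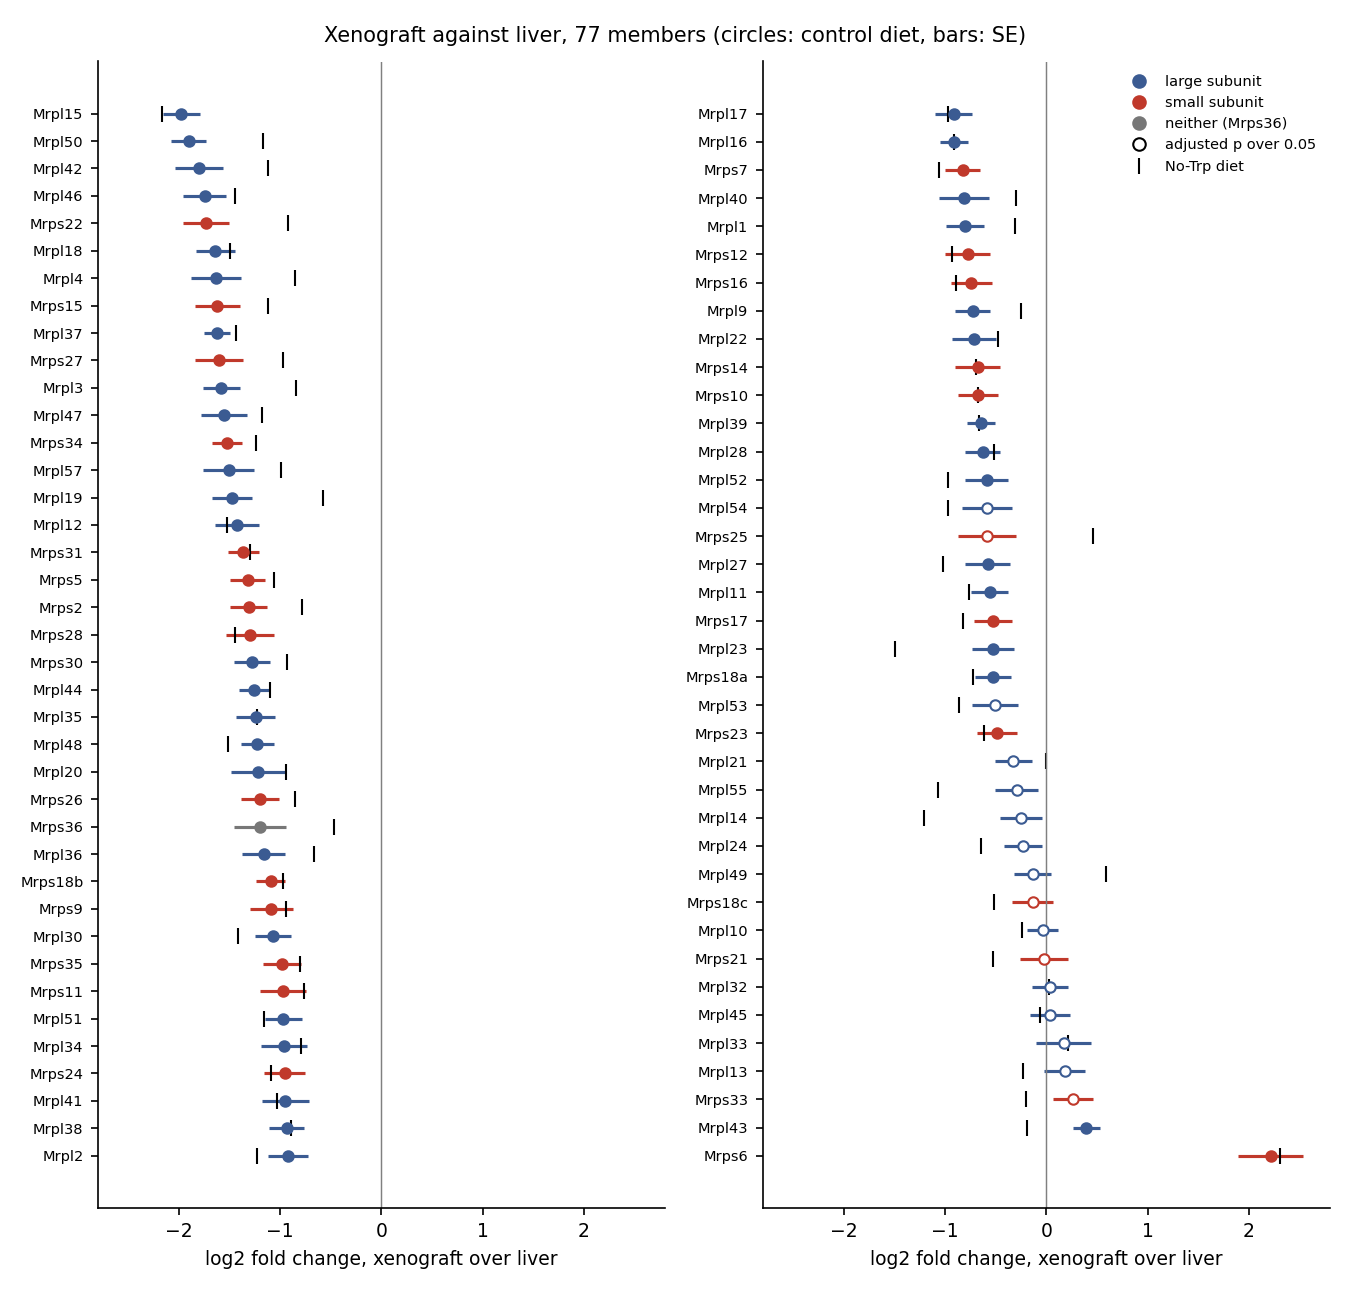
Log2 fold change of xenograft over liver for each of the 77 genes, ordered by the control diet (circles, bars are standard errors, filled where the adjusted p is at most 0.05) with the No-Trp value as a black tick. Colors mark the subunit. Nearly all genes of both subunits lie to the left of 0, and Mrps6 stands alone on the right at 2.21.

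Both subunits took part. Among large-subunit genes 37 of 50 were lower in control-fed mice and 38 of 50 in No-Trp mice, with medians of -0.91 and -0.92. The small subunit had 21 of 26 and 22 of 26, with medians of -0.96 and -0.87. Proteins listed with a bacterial counterpart had medians of -0.86 in the large and -0.80 in the small subunit on the control diet. Those listed as particular to mitochondria had medians of -0.94 and -1.15. That list also holds Mrps18a (large) and Mrps18b (small), although they are paralogs of a bacterial protein. Mrps36, the oxoglutarate dehydrogenase component, had a log2 fold change of -1.20 ± 0.25 (adjusted p = 0.0015) in control-fed mice and stood at -0.47 ± 0.25 (adjusted p = 0.129) in No-Trp mice.

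Mrpl15 (chromosome 1, 4773206 to 4785739, minus strand on GRCm38), a conserved protein of the large subunit, stood furthest below the livers on both diets. It measured 173, 122 and 122 CPM in control livers, 132, 136 and 187 CPM in No-Trp livers, 37.5, 33.1 and 35.3 CPM in control xenografts and 33.0, 34.3 and 34.0 CPM in No-Trp xenografts. The models did not overlap, and the xenografts held about the same level in all 6 mice. The log2 fold change was -1.98 ± 0.18 (SE, adjusted p = 2.09e-06) on the control diet and -2.16 ± 0.18 (adjusted p = 1.02e-06) on the No-Trp diet. Mrpl37, a large-subunit protein particular to mitochondria, had the smallest adjusted p on the control diet, with 108, 104 and 108 CPM in control livers and 36.1, 33.4 and 34.4 CPM in control xenografts (log2 fold change -1.62 ± 0.13, adjusted p = 6.32e-07). Mrpl50 was at 254, 181 and 199 CPM in control livers and 60.4, 52.4 and 56.7 CPM in control xenografts (-1.91 ± 0.18, adjusted p = 2.2e-06). Mrpl48 had the third smallest adjusted p on the No-Trp diet (-1.51 ± 0.17, adjusted p = 9.2e-06).

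Among the genes picked for a special role of their protein, Mrpl12, Mrpl41, Mrps30, Mrps18a, Mrps18b and Mrps36 were lower on the control diet and Mrps18c did not pass. Mrpl12 was at 379, 267 and 281 CPM in control livers and 128, 94.3 and 124 CPM in control xenografts (-1.42 ± 0.22, adjusted p = 0.000142). Mrpl41 differed by -0.95 ± 0.24 (adjusted p = 0.00415) and Mrps30 by -1.28 ± 0.18 (adjusted p = 7.02e-05). Of the 3 paralogs of bacterial S18, of which each small subunit holds Mrps18b and Mrps18c and each large subunit Mrps18a, Mrps18b was lower by the most (-1.10 ± 0.14, adjusted p = 3.68e-05), Mrps18a by less (-0.53 ± 0.18, adjusted p = 0.021), and Mrps18c was at -0.13 ± 0.20 (adjusted p = 0.594).

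The exceptions were few and were singled out after their values were seen. Mrps6 (chromosome 16, 92058270 to 92112227, plus strand), a small-subunit protein next to Mrps18c on the ribosome's platform, was higher in the xenografts. It measured 18.1, 15.4 and 12.9 CPM in control livers, 9.27, 10.1 and 13.7 CPM in No-Trp livers, 112, 54.9 and 48.8 CPM in control xenografts and 39.3, 54.7 and 68.9 CPM in No-Trp xenografts. No liver reached any xenograft, and the log2 fold changes were 2.21 ± 0.33 (adjusted p = 0.000104) and 2.30 ± 0.33 (adjusted p = 8.15e-05). Slc5a3, a myo-inositol transporter gene that shares 18.8% of the exon length of Mrps6 on the same strand, was higher by 3.46 ± 0.47 and 3.53 ± 0.48 in the same comparisons. How the reads of shared exons were assigned is not given in the sources used here, so the rise of Mrps6 itself is uncertain.

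Mrpl43, which shares 27.5% of its exon length with Peo1 on the other strand, was higher on the control diet. There the livers ended at 49.8 CPM and the xenografts began at 55.6 CPM, with a log2 fold change of 0.40 ± 0.13 (adjusted p = 0.0192). It stood at -0.19 ± 0.13 (adjusted p = 0.229) on the No-Trp diet. Mrpl49 did the reverse, at -0.13 ± 0.18 (adjusted p = 0.555) on the control diet and 0.59 ± 0.19 (adjusted p = 0.0163) without Trp. Mrpl45, which anchors the ribosome to the inner membrane, stood at 0.04 ± 0.19 and -0.06 ± 0.20 (adjusted p = 0.885 and 0.801), with levels of 76.8 to 90.8 CPM in control livers and 75.3 to 91.8 CPM in control xenografts. In all, 9 genes passed on neither diet: Mrpl10, Mrpl13, Mrpl21, Mrpl32, Mrpl33, Mrpl45, Mrps21, Mrps25 and Mrps33. Mrpl10, which binds Mrpl12 to the ribosome as the base of the stalk, stood at -0.037 and -0.235, with 75.4 to 89.0 CPM in control livers and 71.2 to 87.5 CPM in control xenografts, while its partner Mrpl12 differed as given above. Mrpl32, whose promoter window held the NRF1 core at 2 places, stood at 0.036 and 0.025.

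Other genes for mitochondrial proteins were lower in the xenografts as well. Of 46 further genes of mitochondrial translation (ribosomal proteins under other names, assembly factors, and initiation, elongation and release factors), 36 were lower in control-fed mice and 29 in No-Trp mice, and none were higher in either (medians -0.93 and -0.60). Nuclear genes for respiratory chain subunits had 33 and 40 of 40 lower (medians -1.10 and -1.38), and a list of other mitochondrial proteins (enzymes, chaperones and proteases of the matrix, with Vdac1, Tomm20 and Timm23 of the membranes) 13 of 15 on each diet (medians -0.98 and -1.19). Genes for proteins of the cytosolic ribosome had few calls. Of 78 tested, 2 were lower and 5 higher on the control diet, with a median of 0.006, and 5 were lower and 1 higher without Trp, with a median of -0.31. Among 8 genes of mitochondrial DNA transcription and replication, 5 were lower and 1 higher on the control diet.

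**Figure D3:**
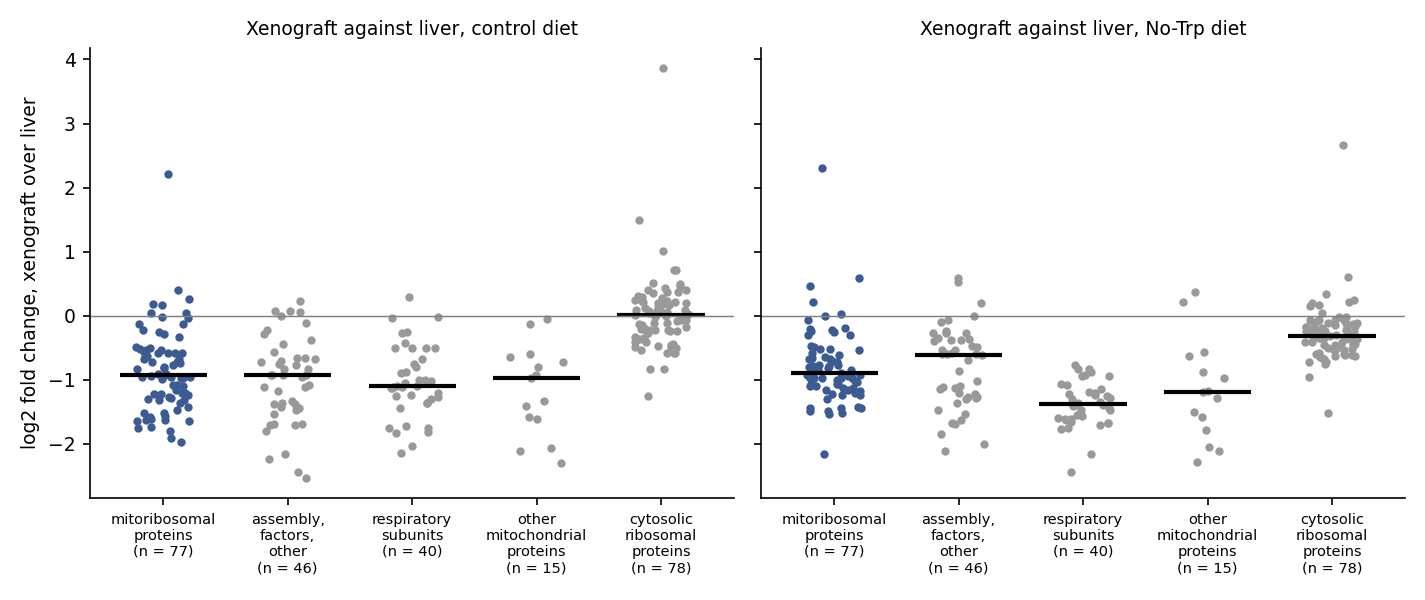
Log2 fold change of xenograft over liver for the 77 mitoribosomal genes (blue) and 4 other lists (grey), on the control diet (left) and the No-Trp diet (right). Each point is a gene and the black line is the median of its list. The 4 lists of mitochondrial genes lie mostly below 0, at medians of -0.93 to -1.10 on the control diet, and the cytosolic ribosomal proteins lie around 0 there and at -0.31 on the right.

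In livers, the No-Trp diet went with lower levels of a minority of the mitoribosomal genes. At an adjusted p of at most 0.05, 9 of 77 (11.7%) were lower and none higher, while 12% of all 14122 genes tested were lower and 13.3% higher, so the share of lower calls was that of genes in general. The median log2 fold change was -0.28 (all genes -0.003), and 54 of 77 lay below 0 (all genes 50.2%). In 27 of 77 all 3 No-Trp livers lay below all 3 control livers (all genes 25%). Of the 9, 1 was past a log2 fold change of 1 (all genes 7.27%). The count rests on single mice. Leaving out any of mice 101 and 103 (control) or 105 (No-Trp) brought it to 0, leaving out No-Trp mouse 107 to 2 and No-Trp mouse 108 to 15, while control mouse 102 did not change it. The median without mouse 101 was -0.10. With resubmission as a covariate it was 23, with 1 gene higher. Over all genes tested, 1 was lower and 7 higher without mouse 103.

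**Figure D4:**
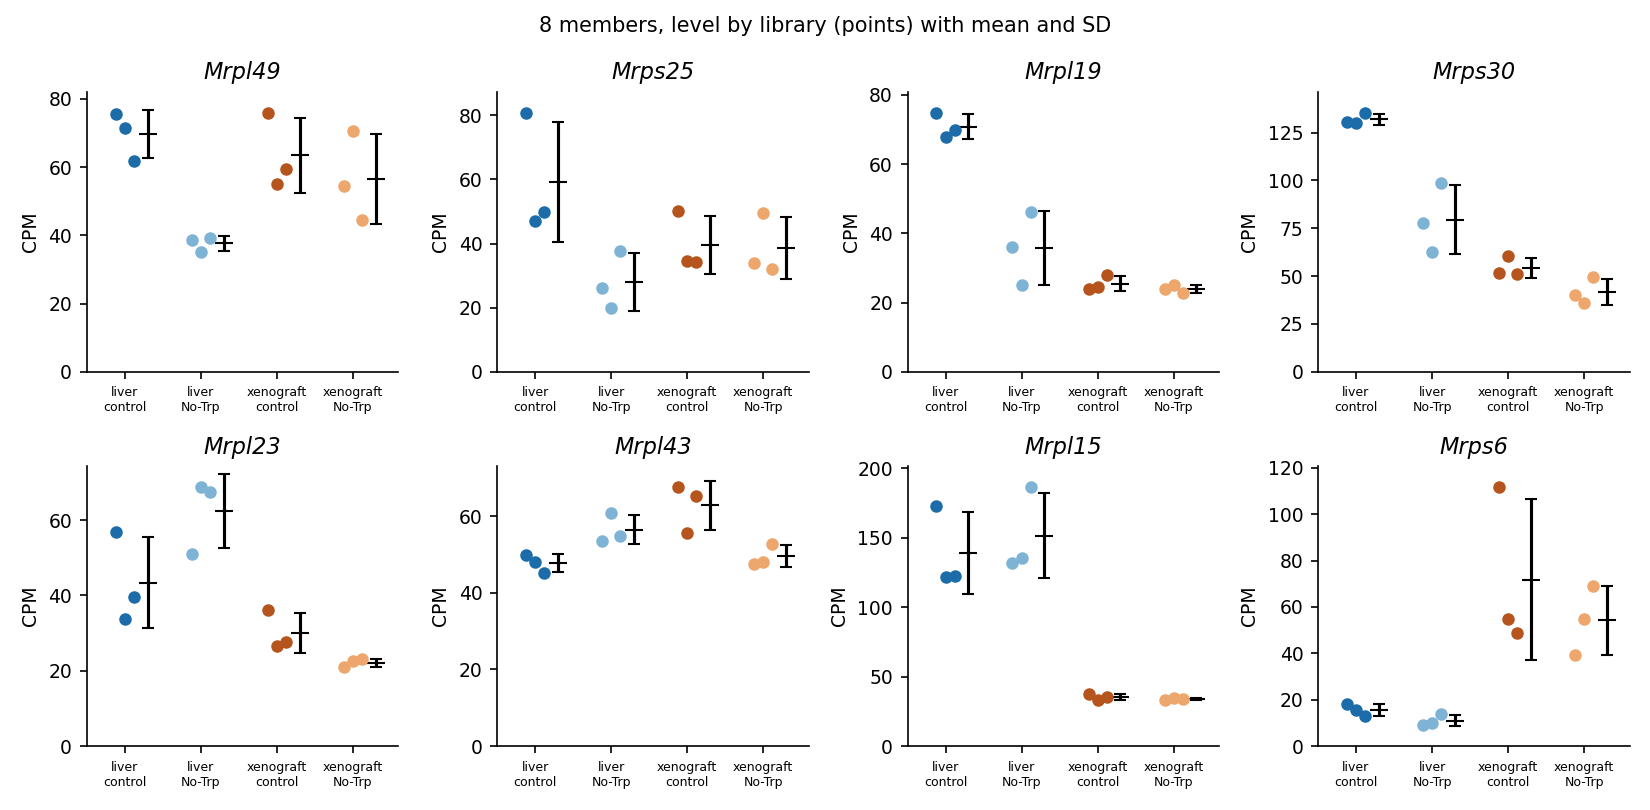
CPM of 8 mitoribosomal genes in each library, by model and diet, with the mean and SD (n = 3) beside the points. Mrpl49, Mrps25, Mrpl19 and Mrps30 separate the diets in livers, Mrpl23 and Mrpl43 have the higher mean without Trp in livers and the lower one in xenografts (with library totals the liver value of Mrpl43 turns to -0.04), and Mrpl15 and Mrps6 separate livers from xenografts.

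The 9 genes were 6 of the large subunit (Mrpl3, Mrpl9, Mrpl19, Mrpl49, Mrpl50 and Mrps30), 2 of the small subunit (Mrps15 and Mrps25) and Mrps36. Mrpl49 (chromosome 19, 6053622 to 6057785, minus strand), a large-subunit protein of mitochondria only, had the smallest adjusted p. It measured 75.6, 71.5 and 61.8 CPM in control livers and 38.6, 35.1 and 39.3 CPM in No-Trp livers (log2 fold change -0.87 ± 0.15, adjusted p = 0.0178). The groups were tight and well apart. Mrps25 (chromosome 6, 92169525 to 92184033, minus strand), a small-subunit protein of mitochondria only, changed by the most, from 80.8, 47.1 and 49.9 CPM to 26.0, 20.1 and 37.8 CPM (-1.07 ± 0.30, adjusted p = 0.0417). Its exons share 58.2% of their length with Nr2c2 on the other strand, which stood at 0.38 ± 0.37 (adjusted p = 0.46), and reads of the pair cannot be told apart without strand.

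Mrpl19, a conserved large-subunit protein, measured 74.8, 67.7 and 70.0 CPM in control livers and 36.2, 25.0 and 46.2 CPM in No-Trp livers (-0.97 ± 0.23, adjusted p = 0.0276), and 39.2% of its exon length is shared with Gcfc2 on the other strand. Mrps30 went from 130, 130 and 135 CPM to 77.6, 62.5 and 98.5 CPM (-0.72 ± 0.19, adjusted p = 0.0348). Mrpl9 fell from 129, 123 and 131 CPM to 92.2, 76.0 and 86.3 CPM (-0.57 ± 0.14, adjusted p = 0.0296). In each of these genes every No-Trp liver was below every control liver, and mouse 107 was the lowest. Mrps36 changed by -0.88 ± 0.26 (adjusted p = 0.0457) and Mrps15 by -0.84 ± 0.25 (adjusted p = 0.0485). Mrpl3, near the peptidyl transferase center, changed by -0.60 ± 0.18 (adjusted p = 0.0472) and Mrpl50 by -0.69 ± 0.21 (adjusted p = 0.0493).

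At the other end of the liver comparison no gene passed. Mrpl23, a protein at the mouth of the exit tunnel, measured 56.8, 33.6 and 39.6 CPM in control livers and 51.0, 68.8 and 67.5 CPM in No-Trp livers (0.54 ± 0.24, adjusted p = 0.124). The groups overlapped through mouse 101. Next came Mrpl55 (0.54 ± 0.22, adjusted p = 0.106), Mrpl14 (0.30 ± 0.18, adjusted p = 0.248), Mrps18c (0.28 ± 0.21, adjusted p = 0.34) and Mrpl43 (0.26 ± 0.14, adjusted p = 0.195). Mrpl13, Mrps16 and Mrps33 were nearest to 0, at 0.00 ± 0.22, 0.00 ± 0.18 and 0.01 ± 0.23. By subunit, 33 of 50 large-subunit genes and 20 of 26 small-subunit genes lay below 0, with medians of -0.29 and -0.18. Of the 9 lower genes, 6 share no exon sequence with another gene.

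Among the 46 other genes of mitochondrial translation, 7 were lower in No-Trp livers and none higher, with a median of -0.21. The 5 with the smallest adjusted p were Noa1, a GTPase of small-subunit assembly (-1.30 ± 0.24, adjusted p = 0.0196), Rpusd4, a pseudouridine synthase of the mitochondrial ribosomal RNA (-1.25 ± 0.26, adjusted p = 0.0228), Gadd45gip1 and Ptcd3, ribosomal proteins of the large and the small subunit under other names (-1.10 ± 0.23 and -0.93 ± 0.26, adjusted p = 0.0232 and 0.0406), and Tsfm, the elongation factor Ts (-0.81 ± 0.23, adjusted p = 0.0407). Of 40 respiratory chain subunits, none were lower and 2 were higher, with a median of 0.11. Cytosolic ribosomal protein genes had no call in 75 tested (median -0.16, 65 below 0).

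Of 10 regulators of nuclear genes for mitochondrial proteins, 4 were lower in No-Trp livers: the coactivator Pprc1 (-1.14 ± 0.21, adjusted p = 0.0196), Nrf1 (-0.71 ± 0.15, adjusted p = 0.0242), the MYC partner Max (-0.69 ± 0.17, adjusted p = 0.0299) and Gabpb1, the partner of GABPA (-0.60 ± 0.17, adjusted p = 0.0378). The coactivator Ppargc1a was higher (1.53 ± 0.36, adjusted p = 0.028). Of 8 genes of mitochondrial DNA transcription and replication, 1 was lower and none higher. The lower gene was Tfam, which packages mitochondrial DNA (log2 fold change -0.62 ± 0.16, adjusted p = 0.0361). Of all genes tested in this comparison, 12% were lower and 13.3% higher. No cause of the changes in the 77 genes was tested.

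In xenografts none of the 77 genes passed the test between the diets, in either direction, by edgeR or by DESeq2, and 13 had an unadjusted p under 0.05 (DESeq2 10). Of large-subunit genes 44 of 50 and of small-subunit genes 24 of 26 lay below 0, with medians of -0.235 and -0.21. Few genes of any kind passed, 0.129% lower and 0.245% higher among 14704. The fold changes nevertheless leaned one way. A value below 0 was found in 69 of 77 genes (all genes 50.5%), the median was -0.23 (all genes -0.004), and in 22 all 3 No-Trp xenografts lay below all 3 controls (all genes 11.8%). The median was -0.14 without control mouse 40 (56 genes below 0) and -0.31 without control mouse 41. It was -0.12 with library totals (59 below 0, all genes at a median of 0.11), and -0.38 with resubmission as a covariate (72 below 0). The resubmitted xenografts were control mice 41 and 43, so that covariate is confounded with diet and leaves control mouse 40 alone against the No-Trp mice. Mouse 40 was placed on the control diet by its labels, since the name of its count file, unlike the rest, does not carry the mouse number. In the same comparison 75 of 77 cytosolic ribosomal protein genes lay below 0 (median -0.49), and 35 of 40 respiratory chain subunits (median -0.25). The other genes of mitochondrial translation had 25 of 46 below 0 (median -0.03), and the list of other mitochondrial proteins 6 of 15 (median 0.14). The fold changes of all genes went with log2 exon length (Spearman's rho 0.22, among the 77 genes 0.30), whose part was not tested.

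The lowest was Mrpl14, a conserved large-subunit protein, at 56.5, 34.7 and 39.1 CPM in control xenografts 40, 41 and 43 and 26.0, 31.4 and 24.1 CPM in No-Trp xenografts (-0.69 ± 0.21, adjusted p = 0.173). The groups did not overlap, and mouse 40 was far above the rest. Mrpl34 (-0.62 ± 0.18, adjusted p = 0.159), Mrps21 (-0.61 ± 0.19, adjusted p = 0.18), Mrps12, the decoding-center protein (-0.59 ± 0.21, adjusted p = 0.221), and Mrpl45 (-0.58 ± 0.20, adjusted p = 0.206) came next, and Mrpl53 stood at -0.55 ± 0.16 (adjusted p = 0.161). At the other end were Mrpl4 (0.27 ± 0.21, adjusted p = 0.558), Mrps22 (0.17 ± 0.19, adjusted p = 0.706), Mrpl16 (0.14 ± 0.15, adjusted p = 0.672), Mrpl3 (0.11 ± 0.18, adjusted p = 0.806) and Mrps34 (0.09 ± 0.17, adjusted p = 0.827). Mrps26, Mrpl50 and Mrps18b were nearest to 0 (-0.01, 0.02 and -0.03). None of the 46 other translation genes passed. Those with the smallest adjusted p were Slirp, which stabilises mitochondrial mRNA (-0.77 ± 0.28, adjusted p = 0.222), the release factor Mtrf1l (-0.60 ± 0.24, adjusted p = 0.262) and the ribosomal proteins Aurkaip1 (-0.41 ± 0.17), Chchd1 (-0.37 ± 0.16) and Dap3 (-0.35 ± 0.16, adjusted p of the last 3 from 0.263 to 0.309).

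**Figure D5:**
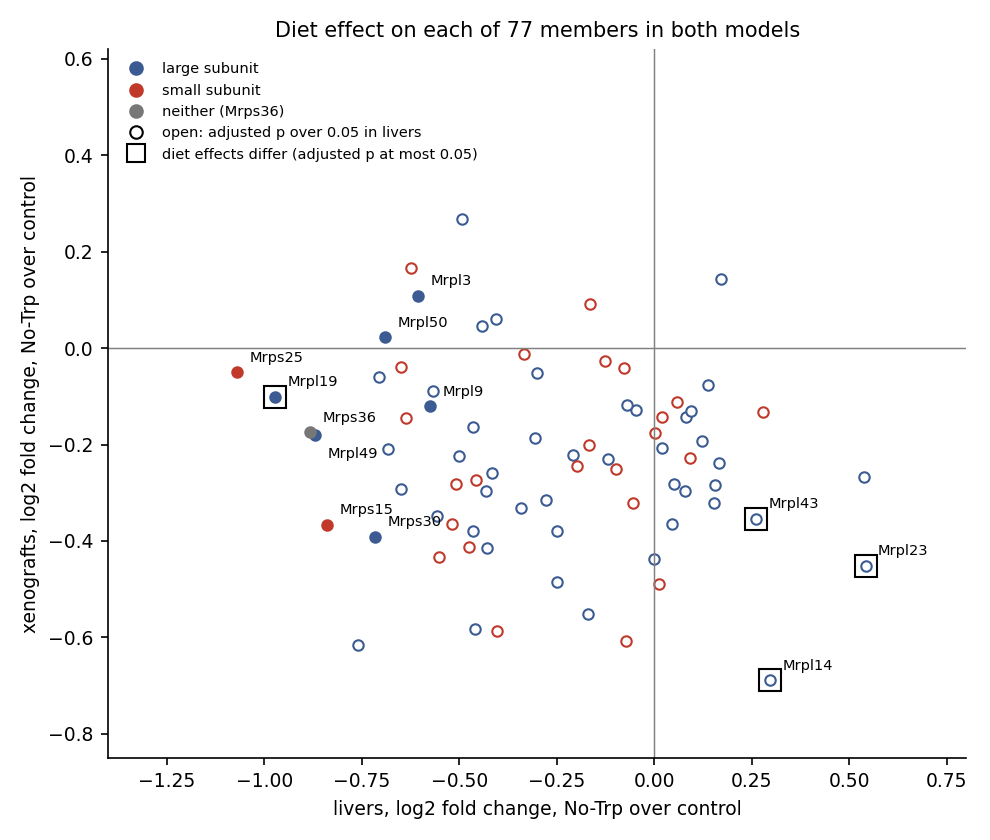
Log2 fold change of No-Trp over control diet in livers (horizontal) and xenografts (vertical) for each of the 77 genes, filled where the adjusted p in livers is at most 0.05, with squares around the 4 genes whose diet effects differed between the models. Most genes lie below 0 on the vertical axis and spread from -1.07 to 0.54 on the horizontal one.

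The effects in the 2 models, measured in different mice, did not line up gene by gene. Across the 77 genes Pearson's r was -0.15 and Spearman's rho -0.12, a description over genes. Across all 13481 genes tested in both models the values were 0.0 and -0.01, so the same held for genes in general. In 9 genes all 3 No-Trp mice lay below all 3 control mice in both models (all genes 2.71%): Mrpl34, Mrpl37, Mrpl38, Mrpl44, Mrpl45, Mrps5, Mrps15, Mrps30 and Mrps35. Of these, Mrpl34 was at 145, 94.5 and 108 CPM in control livers, 65.2, 51.2 and 86.4 CPM in No-Trp livers, 72.0, 49.7 and 56.3 CPM in control xenografts and 35.3, 44.7 and 37.1 CPM in No-Trp xenografts, with log2 fold changes of -0.76 ± 0.24 (adjusted p = 0.0572) and -0.62 ± 0.18 (adjusted p = 0.159). Neither passed the test. In 47 genes both values were below 0, in 22 the liver value was above and the xenograft value below, in 7 the reverse held, and 1 was above 0 in both. With 54 and 69 of 77 below 0 in the separate comparisons, and no such split of all genes given here, these counts are no measure of agreement. The interaction of diet and model passed for 4 genes. In 3 the diet effect was lower in xenografts than in livers (all genes 7.39%), and in 1 it was higher (all genes 8.25%). Mrpl23 differed by -0.97 ± 0.30 (adjusted p = 0.046), going from 36.1, 26.5 and 27.6 CPM to 21.0, 22.5 and 23.0 CPM in xenografts against the higher No-Trp values in livers given above. Mrpl14 differed by -0.96 ± 0.29 (adjusted p = 0.0454), with 59.5, 52.4 and 43.2 CPM in control livers and 53.0, 67.7 and 67.8 CPM in No-Trp livers.

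Mrpl43, which shares exon sequence with Peo1 as given above, differed by -0.59 ± 0.18 (adjusted p = 0.0495). It was at 49.8, 48.1 and 45.2 CPM in control livers and 53.6, 60.8 and 54.9 CPM in No-Trp livers, and at 67.6, 55.6 and 65.2 CPM and 47.6, 48.1 and 52.9 CPM in xenografts, so that the diets overlapped in neither model and their order was opposite (with library totals the liver fold change was -0.04). Mrpl19 differed by 0.90 ± 0.27 (adjusted p = 0.0448), as its xenograft values of 23.9, 24.5 and 28.0 CPM on the control diet and 24.1, 25.0 and 22.7 CPM without Trp overlapped. All 4 adjusted p values lay just inside the threshold. Without any one of control livers 102 and 103, No-Trp livers 107 and 108, the 3 No-Trp xenografts, and control xenografts 40 and 43, no gene was lower.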

How the data were processed

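RNA was sequenced from 12 mice, and the deposited values are counts of reads per gene symbol, without normalization, which the authors made by trimming with Trim Galore, aligning to mm10 with STAR 2.7.2b and counting with HTSeq. The strand setting and the rule for overlapping genes are not given in the sources used here, and 16 of the 77 genes share exon sequence with another gene. Reads that the counting left out (24.7% to 39.4% per library) entered neither library sizes nor tests.

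The diets were compared within each model, and the models within each diet and their interaction in one fit over 12 libraries, by edgeR 4.0.16 under R 4.3.3 (TMM scaling, the filter filterByExpr, robust glmQLFit and a two-sided glmQLFTest). Benjamini-Hochberg adjustment ran over every gene tested in a comparison, and the threshold was an adjusted p of 0.05. The standard error is the log2 fold change divided by the square root of F. DESeq2 1.42.0 was an alternative, as were other factors and filters, covariates and leaving out each library. Each fit was tested on counts drawn from these genes' means with 200 changed genes. Labels call the mice of a group separate animals. Exon lengths and positions come from GENCODE M21 (GRCm38), and promoters from RefSeq.

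The spread between mice that edgeR estimated was 31.6% of the level in livers and 28.7% in xenografts over all genes (median of the 77 genes 22.8% and 18.8%), and with 162 or more counts per gene the mice add more error than counting does.

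The genes named were, in each diet comparison, those with the 5 lowest, 5 highest and 3 nearest-to-0 fold changes at a mean of at least 100 counts, the 3 smallest adjusted p of each comparison, the 3 highest and lowest levels per length, those with special roles, and 5 other translation genes. Others were chosen after their values were seen. Members and lists were chosen with earlier results of these data known.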

Additional observations from a re-analysis of the deposited data

Results flagged for a closer look

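The diet effect differed between the models, by the interaction term of edgeR's quasi-likelihood test with Benjamini-Hochberg adjustment, for 4 of the 77 genes. The effect in xenografts minus that in livers was -0.97 on the log2 scale for Mrpl23, -0.96 for Mrpl14, -0.59 for Mrpl43 and 0.90 for Mrpl19. Over 20 alternative settings the adjusted p ranged from 0.0147 to 0.175 for Mrpl23, from 0.0123 to 0.178 for Mrpl14, from 0.0101 to 0.53 for Mrpl43 and from 0.0157 to 0.0914 for Mrpl19, and no fold change of the 4 changed sign.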

How the results depend on the processing

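In the liver diet comparison the number of lower genes, 9, was 14 with DESeq2, 14 with library totals, 19 in one fit over 12 libraries, 23 with resubmission as a covariate (with 1 higher) and 1 with a log2 fold change of at least 1, and it ranged from 0 to 15 when single mice were left out. The median of the 77 genes was -0.54 with library totals, where that of all genes was -0.30, and ranged from -0.40 to -0.10 without single mice. In xenografts the counts stayed at 0 in the settings run that keep more than 1 control mouse. The median was -0.119 with library totals and -0.31 to -0.14 without single mice. It was -0.378 with resubmission as a covariate, which leaves control mouse 40 alone against the No-Trp mice. The interaction gave 0 lower and 0 higher with a fold threshold or with no filter, 0 and 6 with library totals (median 0.37), 0 and 3 with resubmission as a covariate, 4 and 2 with DESeq2, and 2 higher with at least 10 counts in every library. Without single mice it gave 0 to 2 lower and 0 to 5 higher. Between the models on the control diet, 31 lower and 1 higher passed with a fold threshold, 1 higher in a fit of that diet alone, and the median was -0.75 with library totals; single mice moved the counts between 49 and 61 lower and 1 and 3 higher. On the No-Trp diet 26 lower and 1 higher passed with a fold threshold (all genes 19.1% and 24.5%). With library totals 22 were lower and 6 higher (median -0.38), and a fit of that diet alone gave 1 higher. Leaving out single mice gave 53 to 63 lower, 1 to 2 higher and medians of -0.997 to -0.72. The causes were not tested.

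Among genes that had passed the test in a comparison, the sign changed for Mrpl28 and Mrps18c in the No-Trp model difference, at 0.013 and 0.008 with library totals. Among the genes named that had passed no test, the changes were as follows. With library totals the liver diet value of Mrpl43 was -0.04 and of Mrps33 -0.25, the xenograft diet value of Mrps18b 0.084 and of Mrps26 0.098, the No-Trp model difference of Mrpl43 0.35 and the control-diet one of Mrps18c 0.039. With resubmission as a covariate the xenograft diet value of Mrpl50 was -0.069 and of Mrps34 -0.15, again with control mouse 40 alone on its diet. Without single mice, values ranged from -0.14 to 0.20 for Mrps33 in livers, and in xenografts from -0.046 to 0.21 for Mrpl3, from -0.031 to 0.069 for Mrpl50, from -0.11 to 0.033 for Mrps18b and from -0.13 to 0.16 for Mrps26, and from -0.276 to 0.026 for Mrps18c between the models on the control diet. Mrpl13 and Mrps16, at 0.00 in livers, have no direction.

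No paired analysis was possible because the groups share no animal numbers. Depth limits none of the 77 genes as much as the spread between mice does.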
